A study of Homo sapiens with 16 samples.

Results

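The genes described here are 39 histone-modifying enzymes related to the 2 inhibited ones: 15 lysine demethylases (KDM1B and 14 of the JmjC family), 9 histone deacetylases of classes I, II and IV, 7 sirtuins and 8 acetyltransferases. They were chosen by symbol from a list of relatives of LSD1 and GCN5, leaving out these 2 targets themselves, and all 39 were found among the 62700 genes of the table. Other relatives, HDAC1 and HDAC2 among them, are not members and are described apart. RNA was sequenced from OCI-AML3, an established human acute myeloid leukaemia line, after 3 h of treatment, and all groups share this single line. The 4 libraries of the group Untreated are the reference, ATRA (3 libraries) received the pan-receptor agonist all-trans retinoic acid at 0.1 µM, and AM80 (3 libraries) received the RARA-selective agonist tamibarotene at 0.1 µM. In ATRA_GSK-LSD1_MB3 and AM80_GSK-LSD1_MB3 (3 libraries each) the same retinoid was combined with GSK-LSD1 at 0.1 µM, an inhibitor of LSD1, and MB3 at 100 µM, an inhibitor of GCN5. No group held the inhibitors without a retinoid, nor one inhibitor alone, so the parts of GSK-LSD1 and MB3 cannot be told apart, and neither can an effect of the inhibitors from one that needs a retinoid.

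Lysine acetylation and methylation of histones are written by acetyltransferases and methyltransferases and removed by deacetylases and demethylases. LSD1 (gene KDM1A) is a flavin-dependent demethylase that sits in corepressor complexes with histone deacetylases, and GCN5 (gene KAT2A) is the acetyltransferase of the SAGA and ATAC complexes. The question asked of the data was whether the transcripts of the related enzymes change when both are inhibited, and whether retinoids change them.

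The libraries held 11963898 to 33789718 reads on genes, a 2.82-fold range, and every member had at least 8 reads in every library (SIRT4, 8 to 37 reads). Replicates carried only a repeat number and nothing stated that they came from separate cultures, so the p-values measure the spread between these libraries, which may be technical. All 12 myeloid markers examined were expressed, their summed level lying between 34600 and 45480 normalized counts, whereas CD3D, CD2, MS4A1 and HBA1 had no read in any library. Not all markers of other lineages were silent. A mean of 10 normalized counts was reached by 1 of 4 B cell and 2 of 4 fibroblast markers, and by 0 T cell, erythroid and epithelial markers. The summed levels of the B cell and fibroblast markers reached at most 53.7 and 114.2 normalized counts. In such bulk RNA, fewer cells of a kind and less RNA per cell cannot be told apart. Single libraries departed from their group along transcript properties. Across the 39 genes, the deviation of Untreated replicate 4 from the other 3 Untreated libraries ran against transcript length (Spearman rho = -0.83 over 39 genes), and this library was the lowest of its group for 22 genes. The deviation of AM80 replicate 2 ran against GC content (rho = -0.79 over 39 genes), and those of ATRA replicate 2 and AM80 replicate 3 ran with it (rho = 0.87 and 0.80). These correlations are descriptions, since genes of a library share its depth and preparation.

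All 39 members passed the filter of a mean of 10 normalized counts, as did 14643 genes in all. Levels between genes were compared per kilobase of the principal transcript (for HDAC8, its longest coding transcript) in the Untreated libraries. The median member stood at 155.0 normalized counts per kilobase and the median tested gene with a coding transcript at 164.9, with 19 of 39 members above the latter. HAT1, which acetylates newly made histone H4, was highest at 1343 ± 121 per kilobase (SD, n = 4), 2.16-fold above the next gene. HDAC3, the catalytic subunit of the NCOR corepressor complex, followed at 622 ± 43.2, within the spread of the nucleolar sirtuin SIRT7 at 589 ± 56.8. EP300, KAT6A and SIRT6 lay close together between 286 and 311 per kilobase and did not differ beyond their SDs. At the lower end stood HDAC11 at 16.6 ± 4.86, KDM7A at 16.5 ± 3.89 and the mitochondrial SIRT4 at 15.6 ± 4.48, which were not separable either. The range from HAT1 to SIRT4 was 86.0-fold.

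Promoter sequences were available from RefSeq (GRCh38.p14) for 35 of the 39 members, and not for HDAC5, KAT6A, KAT8 and SIRT7. The 250 bases before the RefSeq start are shown for the 4 genes at the extremes of the responses described below: KDM6B and HDAC10 for the largest mean rise and fall on adding the inhibitors, and KAT6B and HDAC9 for the largest mean rise and fall with the retinoids. They lie at chr17:7833967-7834216 (plus strand), chr22:50251266-50251515 (minus strand), chr10:74825005-74825254 (plus strand) and chr7:18495499-18495748 (plus strand). Capitals mark matches, on either strand, to 1 of 7 motifs: the GC box GGGCGG, the CCAAT box, the TATA box TATAAA, the hexamer AGGTCA of nuclear receptor elements, the E-box CACGTG, the ETS motif CCGGAAG and the cyclic AMP response element TGACGTCA.
KDM6B: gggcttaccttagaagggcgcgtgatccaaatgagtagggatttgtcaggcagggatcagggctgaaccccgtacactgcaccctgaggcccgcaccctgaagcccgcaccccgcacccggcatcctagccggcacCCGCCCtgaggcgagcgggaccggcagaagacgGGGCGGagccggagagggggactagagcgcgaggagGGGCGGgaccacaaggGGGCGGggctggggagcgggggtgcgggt
HDAC10: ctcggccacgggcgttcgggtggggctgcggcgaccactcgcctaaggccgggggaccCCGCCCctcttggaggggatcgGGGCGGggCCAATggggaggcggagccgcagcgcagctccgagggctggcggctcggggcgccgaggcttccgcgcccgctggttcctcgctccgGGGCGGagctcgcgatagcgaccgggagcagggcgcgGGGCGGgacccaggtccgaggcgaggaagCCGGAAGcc
KAT6B: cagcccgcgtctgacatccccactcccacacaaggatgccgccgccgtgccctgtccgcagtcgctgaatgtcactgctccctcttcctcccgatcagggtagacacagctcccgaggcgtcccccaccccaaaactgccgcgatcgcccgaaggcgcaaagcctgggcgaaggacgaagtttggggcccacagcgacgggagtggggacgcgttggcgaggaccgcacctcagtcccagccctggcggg
HDAC9: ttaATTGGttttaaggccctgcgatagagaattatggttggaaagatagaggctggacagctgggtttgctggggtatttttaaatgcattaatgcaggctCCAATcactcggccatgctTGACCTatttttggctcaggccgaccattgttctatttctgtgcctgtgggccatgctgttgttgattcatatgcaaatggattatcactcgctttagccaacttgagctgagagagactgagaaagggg
The KDM6B and HDAC10 windows, of 70.4% and 78% GC, held 4 matches each to GGGCGG (HDAC10 also 1 to CCAAT and 1 to CCGGAAG), the KAT6B window held none of the 7 motifs, and the HDAC9 window, of 45.2% GC, held 2 matches to CCAAT and 1 to AGGTCA. Among all 35116 promoters of the same length, GGGCGG occurred in 42.6%, CCAAT in 32%, AGGTCA in 12.1%, TATAAA in 10.7%, CCGGAAG in 8.52%, CACGTG in 6.34% and TGACGTCA in 1.65%. Of the 35 members, 19 held GGGCGG, 12 held CCAAT, 9 held CCGGAAG, 5 held CACGTG, 2 held AGGTCA (HDAC9 and KDM6A), 1 held TGACGTCA and 0 held TATAAA. The members' windows had a median GC content of 66.4% against 58% over all promoters. A match is a string of letters and not an observed binding site, and the use of these starts in OCI-AML3 was not tested. For 29 of the 35 members the bases after the RefSeq start were found in a GENCODE transcript of the gene. KDM6B was not among them, its window lying before the start of the gene in GENCODE release 29. The HDAC9 and KAT6B windows lie inside their genes as GENCODE places them, and the HDAC10 window lies across the start of its gene.

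Adding GSK-LSD1 and MB3 changed about as many of these enzymes beside either retinoid, and most of the rises were shared. A gene was called at an adjusted p under 0.05 by limma over all 14643 genes, fold changes are on the log2(normalized count + 1) scale, and library values are listed in the order of replicates. Beside ATRA, 14 members rose, where 24.9% of all genes tested did, and 9 fell, where 24.4% did. Beside AM80, 14 rose against a background of 19.9% and 6 fell against 19.5%. With a change of at least 1.5-fold also required, 5 members rose beside ATRA (8.15% of all genes) and 2 fell (11.4%), and 7 rose beside AM80 (6.81%) and 0 fell (8.9%). The members' median log2 change was 0.06 beside ATRA and 0.04 beside AM80, and that of all genes -0.02 and -0.01. Leaving out AM80 replicate 1 or AM80 replicate 3 left 2 of the 6 falls beside AM80, and leaving out AM80_GSK-LSD1_MB3 replicate 3 left 3. The 2 comparisons share no library. In both together, 13 members rose (15.9% of all genes did), 4 fell (13.9%) and 0 moved in opposite directions (0.0683%). These 17 genes are 73.9% of the members called beside ATRA and 85.0% of those called beside AM80. As a description, the 2 changes correlated at Pearson r = 0.886 across the 39 members and 0.815 across all genes tested, with 30 of the 39 members and 78.7% of all genes sharing their sign.

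**Figure D1:**
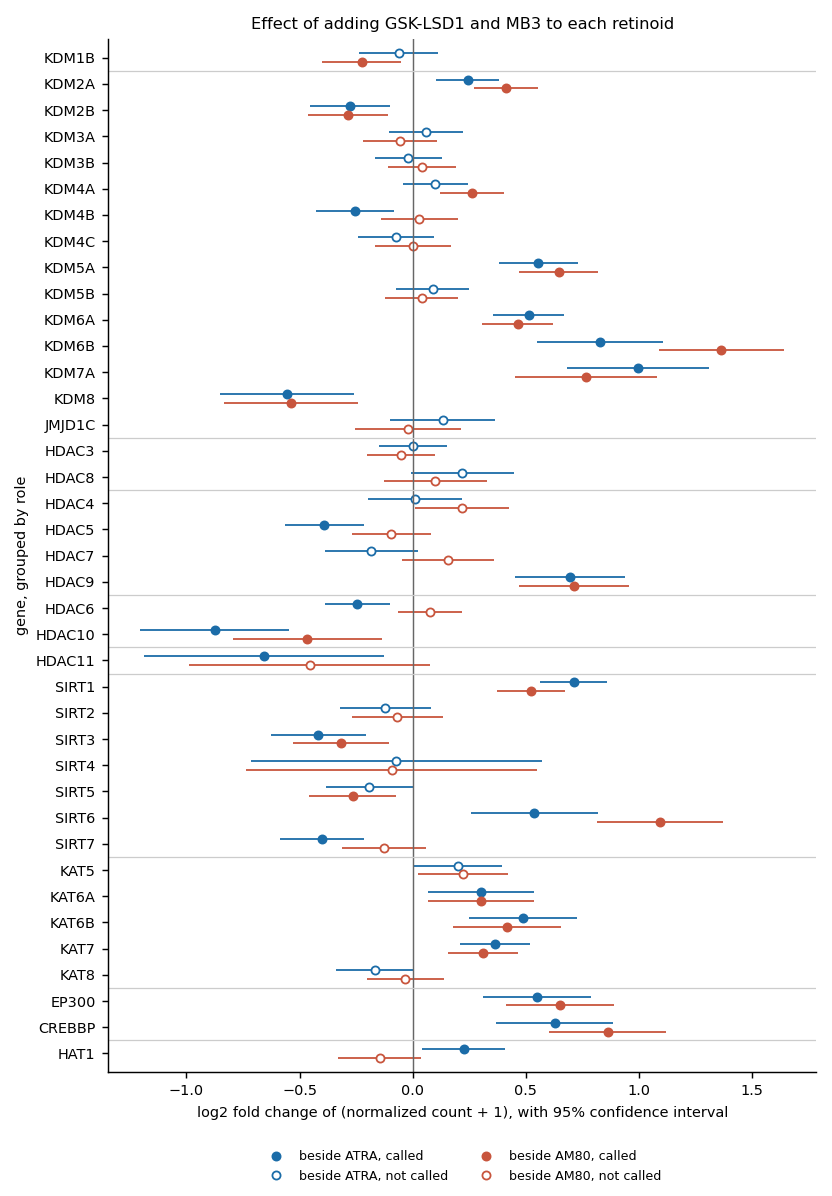
Log2 fold change of the normalized count (x axis, with the 95% confidence interval as a line) for each of the 39 genes (y axis, grouped by role with grey dividers) on adding GSK-LSD1 and MB3 to ATRA (blue) and to AM80 (red); filled points were called by limma. The longest rise is that of KDM6B beside AM80, at 1.36, the lowest point is HDAC10 beside ATRA, at -0.87, and the widest intervals belong to SIRT4.

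The split between rises and falls depended on GC content and on scaling. With a smooth trend on transcript GC content removed from each library, 15 members rose and 1 fell beside ATRA (23.3% and 19.1% of all genes did), and 19 rose and 5 fell beside AM80 (24.7% and 20.5%). The fall beside ATRA was then that of KDM1B, and none of the 9 falls named below for ATRA was still called. Rises called under this setting and not with the deposited scaling were those of KDM4A, KAT5 and SIRT2 beside ATRA, and of KDM4B, HDAC4, HDAC6, HDAC7 and KAT5 beside AM80. With the reads scaled to library totals in place of the deposited size factors, 11 rose and 14 fell beside ATRA (15.2% and 35.8% of all genes) and 10 rose and 10 fell beside AM80 (12.5% and 30.3%). That scaling moved the median of all genes by -0.14 and -0.12 on the log2 scale, and the members' medians to -0.09 and -0.08. The rises of KDM5A, KDM6A, KDM6B, KDM7A, HDAC9, SIRT1, SIRT6, EP300 and CREBBP were called in both comparisons under both of these settings.

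**Figure D2:**
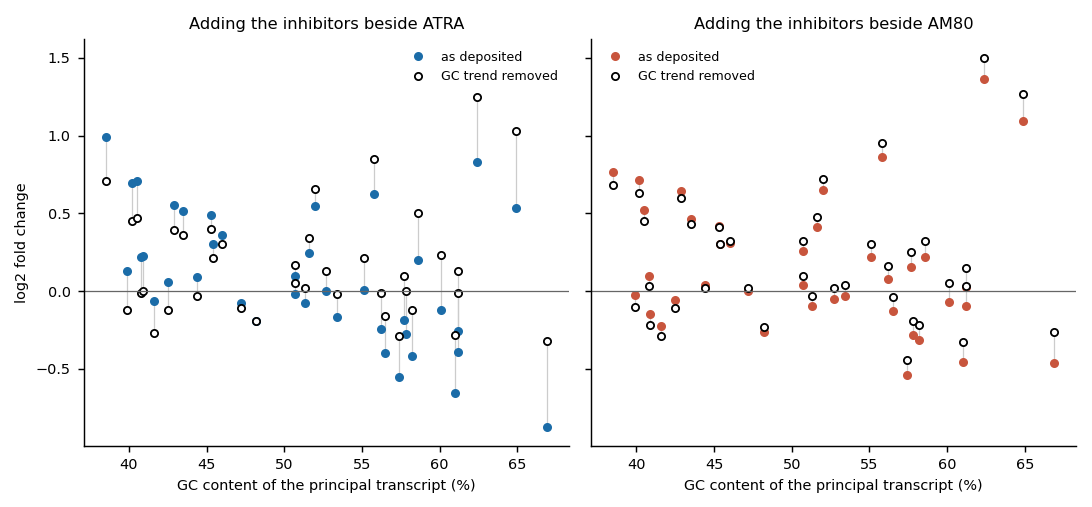
Log2 fold change on adding the inhibitors to ATRA (left) and to AM80 (right), on the y axis, against GC content in percent, on the x axis, for each of the 39 genes. The GC content is that of the longest transcript of each gene, although the axis label names the principal transcript. Coloured points are the values from the deposited scaling, open points those with the GC trend removed, and a grey line joins the pair of each gene. Beside ATRA the open points lie higher than the coloured ones at high GC content, HDAC10 moving from -0.87 to -0.32, and lower at low GC content, KDM7A moving from 0.99 to 0.71.

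Among the 14 JmjC demethylases, which oxidise methyl groups off lysines with iron and oxoglutarate, 5 rose and 3 fell beside ATRA (24.9% and 24.4% of all genes did), and 6 rose and 2 fell beside AM80 (19.9% and 19.5%). KDM6B (JMJD3) and KDM6A (UTX) erase the repressive methyl mark laid by Polycomb. KDM6B held 555, 618 and 542 normalized counts in the ATRA libraries and 943, 1142 and 967 after addition of the inhibitors. For AM80 the values of KDM6B were 523, 411 and 516 without and 1368, 1205 and 1151 with inhibitors. Every library with inhibitors lay above every library without, and above the Untreated ones (616, 596, 671 and 425). KDM6B rose 1.77-fold beside ATRA (log2 0.83 ± 0.13 SE, adjusted p = 4.02e-05, limma) and 2.57-fold beside AM80 (log2 1.36 ± 0.13 SE, adjusted p = 9.97e-08, limma). With the GC trend removed its log2 change beside ATRA was 1.25 and that beside AM80 was larger still.

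With ATRA alone, KDM6A stood at 913, 878 and 929.9 normalized counts, and with the inhibitors at 1186, 1431 and 1275. With AM80 alone, KDM6A stood at 920.0, 988 and 913, and with the inhibitors at 1246, 1359 and 1285. The groups did not overlap in either pair, and the rises were log2 0.51 ± 0.08 SE, adjusted p = 1.47e-05 beside ATRA and log2 0.46 ± 0.08 SE, adjusted p = 5.53e-05 beside AM80 (limma). KDM7A, which erases repressive methyl marks and reads an active one, was among the weakest expressed members. Its ATRA libraries held 114, 98.3 and 114 normalized counts and 206, 225 and 222 with the inhibitors, and its AM80 libraries 114, 121 and 115 and 194, 199 and 205. All 6 libraries with inhibitors stood above all 6 without. The rises were 1.99-fold beside ATRA (log2 0.99 ± 0.15 SE, adjusted p = 2.1e-05, limma) and 1.7-fold beside AM80 (log2 0.77 ± 0.15 SE, adjusted p = 0.0004, limma).

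KDM5A removes the methyl mark of active promoters. It held 2884, 2801 and 2757 normalized counts with ATRA and 4017, 4468 and 3927 with ATRA and inhibitors, and 2627, 2861 and 2625 with AM80 and 4392, 4108 and 4183 with AM80 and inhibitors. The ranges were far apart, and the log2 changes were 0.55 ± 0.08 (SE, adjusted p = 2.14e-05, limma) and 0.64 ± 0.08 (adjusted p = 4.38e-06). Exons of KDM5A overlap those of CCDC77 on the other strand, and the strand setting of the counting was not given. Its closest relative in the list, KDM5B, was not called in either comparison (log2 0.09 and 0.04, adjusted p = 0.356 and 0.72 by limma).

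KDM2A and KDM2B bind unmethylated CpG islands, and KDM2B brings a variant Polycomb complex to them. KDM2A held 3713, 3664 and 3623 normalized counts with ATRA, 4190.2, 4512 and 4315 with the inhibitors added, 3391, 3362 and 3593 with AM80 and 4673, 4636 and 4464 with inhibitors beside AM80. It rose in both comparisons without overlap (log2 0.24 ± 0.07 and 0.41 ± 0.07, SE, adjusted p = 0.00553 and 5.83e-05 by limma), but the call beside ATRA was lost with quantile normalization and with scaling to total reads. KDM2B went the other way, with log2 changes of -0.28 ± 0.08 and -0.28 ± 0.08 (SE, adjusted p = 0.0103 and 0.0111 by limma). Its fall beside ATRA was near 0 with the GC trend removed and was lost without ATRA_GSK-LSD1_MB3 replicate 1, and the call beside AM80 was lost without AM80 replicate 3.

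KDM8 (JMJD5), a small JmjC protein whose action on histones is debated, fell in both comparisons. The normalized counts of KDM8 were 108, 105 and 101 with ATRA and 65.4, 75 and 72.7 with ATRA and inhibitors. Beside AM80 they went from 100.3, 107 and 91.1 to 57, 79.7 and 69.5 with the inhibitors. No library with inhibitors reached the range of those without. The falls were log2 -0.55 ± 0.14 SE, adjusted p = 0.00302 beside ATRA and log2 -0.54 ± 0.14 SE, adjusted p = 0.0049 beside AM80 (limma), and with the GC trend removed -0.29 and -0.44, of which that beside ATRA was no longer called.

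Among the other demethylases, KDM4B was called lower beside ATRA alone (log2 -0.25 ± 0.08 SE, adjusted p = 0.0142 by limma, and 0.03 beside AM80), a call lost without ATRA replicate 2, and its value turned to 0.13 with the GC trend removed. KDM4A, of the same family, was called higher beside AM80 alone (log2 0.26 ± 0.07 SE, adjusted p = 0.00451, and 0.10 beside ATRA), a call lost with scaling to total reads. KDM1B, the only close paralogue of LSD1, was called lower beside AM80 alone (log2 -0.23 ± 0.08 SE, adjusted p = 0.0386 by limma). That call was lost under 8 of 27 alternatives, among them leaving out AM80 replicate 1 or 2 or AM80_GSK-LSD1_MB3 replicate 1 or 3. KDM3A, KDM3B, KDM4C, KDM5B and JMJD1C were called in neither comparison, with log2 changes between -0.07 and 0.13.

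**Figure D3:**
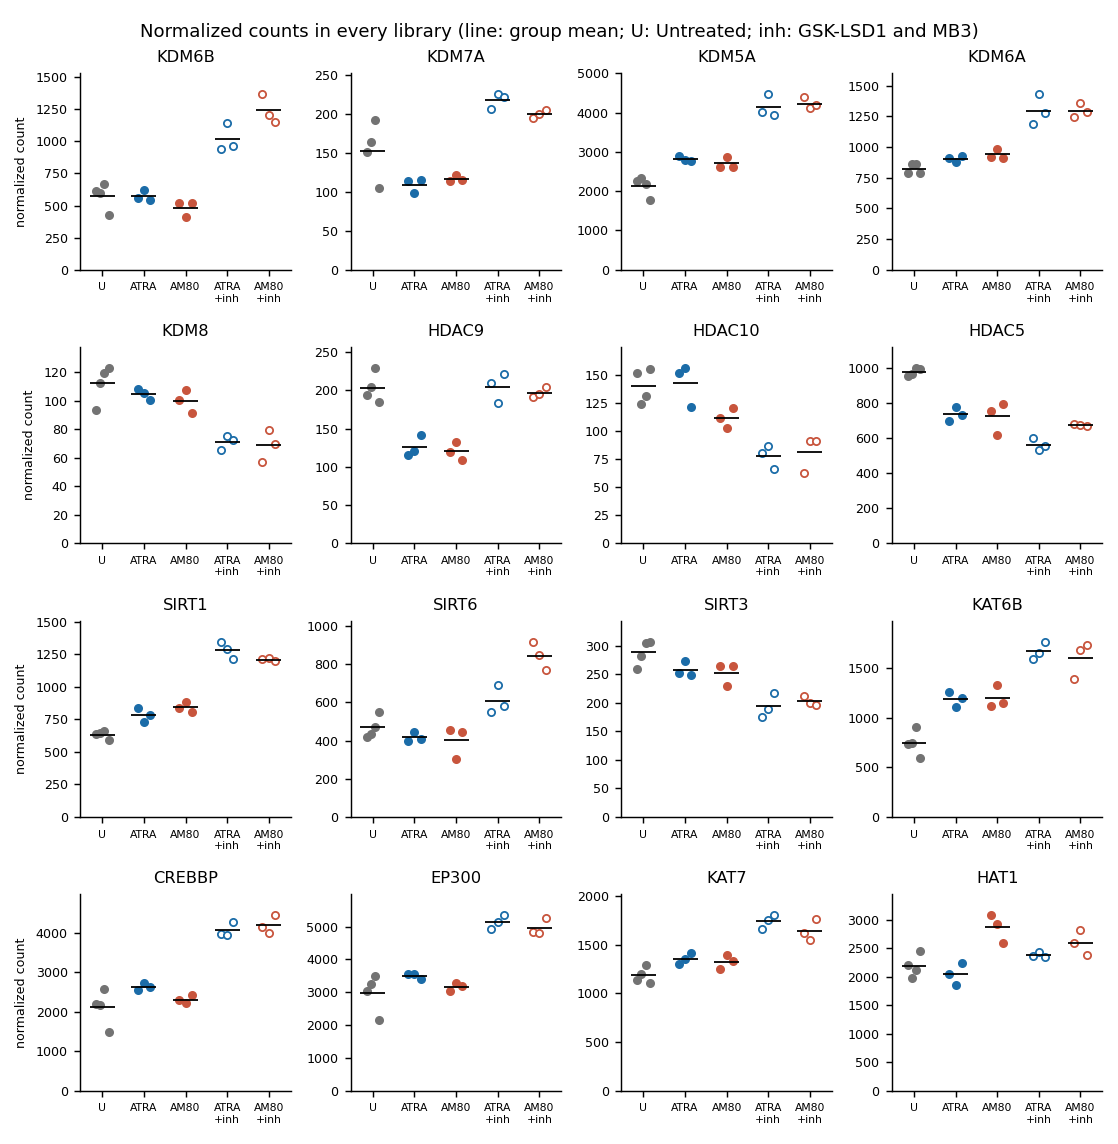
Normalized count (y axis, from 0, a scale of its own for each gene) in every library for 16 of the genes; the x axis gives the group (U, Untreated; inh, GSK-LSD1 and MB3), points are libraries and black lines group means. In KDM6B, KDM7A, KDM5A, SIRT1, CREBBP and EP300 the 6 libraries with inhibitors lie above the 6 with a retinoid alone, and in HDAC9 the retinoid libraries lie below both the Untreated libraries and those with inhibitors.

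Of the 9 classical deacetylases among the members, which leave out HDAC1 and HDAC2, 1 rose and 4 fell beside ATRA (24.9% and 24.4% of all genes did). Beside AM80 1 rose and 1 fell (19.9% and 19.5%). The rise was HDAC9 both times, a class IIa enzyme with little catalytic activity of its own that works through the NCOR complex. HDAC9 held 116, 121 and 142 normalized counts in the ATRA libraries and 209, 184 and 222 after addition of the inhibitors. For AM80 the values of HDAC9 were 119, 133 and 108 without and 191, 195 and 205 with inhibitors. Libraries with and without inhibitors did not overlap. HDAC9 rose 1.62-fold beside ATRA (log2 0.70 ± 0.12 SE, adjusted p = 6.39e-05, limma) and 1.64-fold beside AM80 (log2 0.71 ± 0.12 SE, adjusted p = 6.03e-05, limma).

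HDAC10, a class IIb enzyme that deacetylates polyamines, fell in both comparisons. With ATRA alone, HDAC10 stood at 151, 156 and 122 normalized counts, and with the inhibitors at 80.1, 86.9 and 65.9. With AM80 alone, HDAC10 stood at 111, 103 and 120.1, and with the inhibitors at 62.5, 90.7 and 91.4. The groups did not overlap, but beside AM80 the highest library with inhibitors (91.4) came close to the lowest without (103). The fall was log2 -0.87 ± 0.16 SE, adjusted p = 0.000138 beside ATRA and log2 -0.47 ± 0.16 SE, adjusted p = 0.0239 beside AM80 (limma). With the GC trend removed it was called in neither (log2 -0.32 and -0.26), and beside AM80 it was also lost without AM80 replicate 1, without AM80 replicate 3 and without AM80_GSK-LSD1_MB3 replicate 1. Its exons overlap those of MAPK12 on the same strand, so some reads may have been shared or left uncounted.

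The other 3 falls were called beside ATRA alone. HDAC5 (class IIa) held 699, 779 and 731 normalized counts with ATRA and 598, 534 and 552 with the inhibitors, without overlap (log2 -0.39 ± 0.08 SE, adjusted p = 0.000668, limma), against a log2 change of -0.09 ± 0.08 beside AM80. HDAC6, the cytoplasmic tubulin deacetylase, changed by -0.24 ± 0.07 beside ATRA (adjusted p = 0.00581, limma) and by 0.08 ± 0.07 beside AM80. HDAC11, the class IV enzyme, was low at 21.5 to 62 normalized counts over all libraries and changed by -0.66 ± 0.26 (adjusted p = 0.0384, limma) and -0.46 ± 0.26. All 3 calls were lost with the GC trend removed, and that of HDAC11 also without any 1 of ATRA replicates 1 and 2 and ATRA_GSK-LSD1_MB3 replicates 1 and 2. HDAC3, HDAC4, HDAC7 and HDAC8 were called in neither comparison, their log2 changes lying between -0.18 and 0.22.

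Of the 7 sirtuins, deacylases that consume NAD, 2 rose and 2 fell beside each retinoid, near the shares of all genes (24.9% and 24.4% beside ATRA, 19.9% and 19.5% beside AM80). SIRT1, the main nuclear deacetylase of the family, rose in both. The normalized counts of SIRT1 were 841, 732 and 787 with ATRA and 1349, 1293 and 1217 with ATRA and inhibitors. Beside AM80 they went from 838, 885 and 806 to 1216, 1219 and 1197 with the inhibitors. The groups were well separated, and the change was 1.64-fold beside ATRA (log2 0.71 ± 0.07 SE, adjusted p = 1.69e-07, limma) and 1.44-fold beside AM80 (log2 0.52 ± 0.07 SE, adjusted p = 8.63e-06, limma).

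SIRT6, a chromatin-bound sirtuin, rose as well. Its ATRA libraries held 398, 445 and 406 and 548, 691 and 583 with the inhibitors, and its AM80 libraries 454, 302 and 447 and 919, 847 and 769.9. No library with inhibitors overlapped those without, and AM80 replicate 2 was the lowest of all 16. The rise was 1.45-fold beside ATRA (log2 0.54 ± 0.13 SE, adjusted p = 0.00246, limma) and 2.13-fold beside AM80 (log2 1.09 ± 0.13 SE, adjusted p = 2.01e-06, limma). With the GC trend removed the log2 changes were 1.03 and 1.27.

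SIRT3, the main mitochondrial deacetylase, fell in both. SIRT3 held 252, 273 and 248 normalized counts in the ATRA libraries and 175, 189 and 216 after addition of the inhibitors. For AM80 the values of SIRT3 were 264, 229.9 and 264 without and 212, 199 and 196 with inhibitors. The pairs of groups did not overlap. The falls were log2 -0.42 ± 0.10 SE, adjusted p = 0.00208 and log2 -0.32 ± 0.10 SE, adjusted p = 0.0172 (limma). The call beside ATRA was lost with the GC trend removed (log2 -0.12), and that beside AM80 without AM80 replicate 1, without AM80 replicate 3 and without AM80_GSK-LSD1_MB3 replicate 3. SIRT3 shares exonic sequence with PSMD13 on the opposite strand. SIRT7 was called lower beside ATRA alone (log2 -0.40 ± 0.09 SE, adjusted p = 0.000989 by limma; -0.13 beside AM80), a call lost with the GC trend removed. The mitochondrial desuccinylase SIRT5 was called lower beside AM80 alone (log2 -0.26 ± 0.09 SE, adjusted p = 0.0274 by limma; -0.19 beside ATRA), and 8 of 27 alternatives lost that call, among them leaving out AM80 replicate 1 or 3 or AM80_GSK-LSD1_MB3 replicate 2 or 3. SIRT2 and SIRT4 were called in neither.

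With the deposited scaling the acetyltransferases rose or were not called: 6 of 8 rose beside ATRA, 5 of 8 beside AM80 (24.9% and 19.9% of all genes rose) and 0 fell, with median log2 changes of 0.33 and 0.31. With scaling to total reads, where 35.8% and 30.3% of all genes fell, KAT8 fell beside ATRA (log2 -0.31, adjusted p = 0.00327, limma). HAT1 then fell beside AM80 (log2 -0.27, adjusted p = 0.00839, limma). Under that scaling CREBBP, EP300, KAT6B and KAT7 rose beside ATRA, and only CREBBP and EP300 beside AM80. CREBBP and its paralogue EP300 are coactivators that liganded nuclear receptors draw to their targets. With ATRA alone, CREBBP stood at 2549, 2725 and 2628 normalized counts, and with the inhibitors at 3979, 3945 and 4284. With AM80 alone, CREBBP stood at 2289, 2217 and 2433, and with the inhibitors at 4167, 3997 and 4454. All 6 libraries with inhibitors stood well above the others. CREBBP rose 1.54-fold beside ATRA (log2 0.63 ± 0.12 SE, adjusted p = 0.000333, limma) and 1.82-fold beside AM80 (log2 0.86 ± 0.12 SE, adjusted p = 1.42e-05, limma). The normalized counts of EP300 were 3546, 3567 and 3410.4 with ATRA and 4918, 5137 and 5348 with ATRA and inhibitors. Beside AM80 they went from 3031, 3267 and 3200.3 to 4841, 4806 and 5260.4 with the inhibitors. The separation was as clear as for CREBBP, with changes of log2 0.55 ± 0.11 SE, adjusted p = 0.000533 beside ATRA and log2 0.65 ± 0.11 SE, adjusted p = 0.000129 beside AM80 (limma).

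Of the 5 MYST enzymes, KAT6A, KAT6B and KAT7 rose beside both retinoids. KAT6A (MOZ) and KAT6B (MORF) acetylate histone H3 within BRPF complexes, and KAT7 (HBO1) works with BRPF or JADE subunits. KAT6B held 1259, 1113 and 1205 normalized counts in the ATRA libraries and 1594, 1651 and 1769.7 after addition of the inhibitors. For AM80 the values of KAT6B were 1117, 1329 and 1146 without and 1388, 1684 and 1732 with inhibitors. The groups did not overlap (log2 0.49 ± 0.12 SE, adjusted p = 0.00161 beside ATRA, log2 0.42 ± 0.12 SE, adjusted p = 0.00686 beside AM80, limma). KAT7 held 1299.6, 1353 and 1414 with ATRA and 1664, 1757 and 1806 with the inhibitors, 1248, 1398 and 1332 with AM80 and 1618, 1554 and 1764 with inhibitors. It rose without overlap by log2 0.36 ± 0.07 and 0.31 ± 0.07 (SE, adjusted p = 0.000454 and 0.00223 by limma). Beside AM80 the calls of KAT6B and KAT7 were lost with scaling to total reads. KAT6A changed by 0.30 ± 0.11 and 0.30 ± 0.11 (adjusted p = 0.0309 and 0.0378 by limma), and each call was lost under 8 of 27 alternatives, including the removal of replicate 2 or 3 of ATRA or of ATRA_GSK-LSD1_MB3 beside ATRA, and of AM80 replicate 1 or 3 or any of the 3 AM80_GSK-LSD1_MB3 replicates beside AM80. KAT5 (log2 0.20 and 0.22) and KAT8 (-0.17 and -0.03) were not called. KAT5 was called higher in both comparisons once the GC trend was removed (log2 0.50 and 0.32, adjusted p = 2.41e-05 and 0.00163, limma). HAT1 was called higher beside ATRA alone (log2 0.23 ± 0.09 SE, adjusted p = 0.0384 by limma; -0.15 beside AM80), and its value was near 0 with the GC trend removed. That call was lost under 10 of 27 alternatives, among them leaving out ATRA replicate 1 or 2 or any of the 3 ATRA_GSK-LSD1_MB3 replicates.

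**Figure D4:**
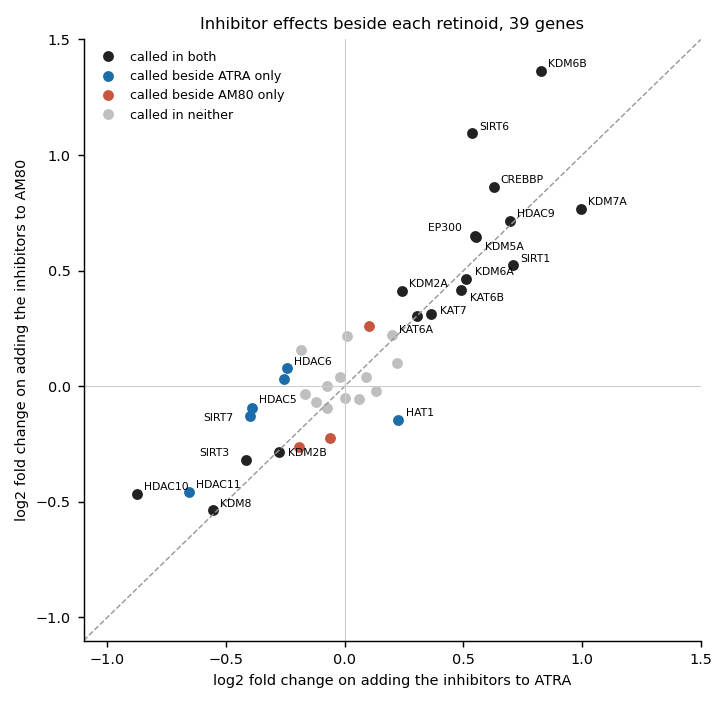
Log2 fold change on adding the inhibitors to AM80 (y axis) against that on adding them to ATRA (x axis), 1 point per gene, coloured by the comparisons in which limma called it; the dashed line marks equal change. The 17 genes called in both lie at the upper right or lower left, and HAT1 lies apart at 0.23 and -0.15.

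The ATRA and AM80 comparisons share the 4 Untreated libraries, so their values are given side by side without a measure of likeness. With ATRA alone, 6 members rose (12.5% of all genes did) and 4 fell (12.1%). With AM80 alone, 6 rose (15.4%) and 4 fell (13.4%). These counts lay near the shares of all genes. The members' median log2 change was 0.02 with ATRA and -0.03 with AM80, beside -0.02 and -0.01 for all genes. KAT6B, KDM5A, SIRT1 and KDM4A rose with each retinoid and HDAC9, HDAC5 and HDAC3 fell with each. Without Untreated replicate 4, 5 rose and 4 fell with ATRA (12.3% and 11.9% of all genes), and 5 rose and 9 fell with AM80 (17.5% and 15.3%).

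KAT6B showed the largest rise. Its Untreated libraries held 738, 749, 906 and 596 normalized counts, below all retinoid libraries listed above. The change was 1.61-fold with ATRA (log2 0.69 ± 0.11 SE, adjusted p = 4.99e-05, limma) and 1.61-fold with AM80 (log2 0.69 ± 0.11 SE, adjusted p = 4.18e-05, limma). KDM5A stood at 2247, 2336, 2187 and 1772 in the Untreated libraries and rose by log2 0.41 ± 0.08 (adjusted p = 0.000521, limma) and 0.35 ± 0.08 (adjusted p = 0.00191). SIRT1 stood at 639, 642, 660.1 and 589 and rose by 0.31 ± 0.07 (adjusted p = 0.00142, limma) and 0.41 ± 0.07 (adjusted p = 6.98e-05). These 3 genes rose at both steps, with the retinoid and again with the inhibitors. The 2 steps share the libraries with a retinoid alone, so they are not independent. The share of all genes that rose at both steps was not computed.

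KDM4A, which removes methyl groups from histone H3, held 665, 645, 674 and 583 normalized counts untreated, 793, 768 and 785 with ATRA and 758, 766 and 772 with AM80. No retinoid library overlapped the Untreated ones (log2 0.29 ± 0.06 SE, adjusted p = 0.00179 with ATRA, log2 0.26 ± 0.06 SE, adjusted p = 0.00407 with AM80, limma). The call with AM80 was lost when only the compared groups were fitted (adjusted p = 0.0508, limma).

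The 3 members that fell with both retinoids were deacetylases. Of the 9 classical deacetylases among the members, 3 fell with ATRA (12.1% of all genes did) and 4 with AM80 (13.4%). The share of all genes that fell with both was not computed. HDAC9 held 194, 204, 229 and 185 normalized counts in the Untreated libraries, above all 6 retinoid libraries, and fell to 0.623 of that level with ATRA (log2 -0.68 ± 0.11 SE, adjusted p = 6.29e-05, limma) and 0.593 with AM80 (log2 -0.75 ± 0.11 SE, adjusted p = 1.66e-05, limma). With the inhibitors added, its log2 difference from Untreated was 0.01 (95% confidence interval -0.22 to 0.24) beside ATRA and -0.04 (-0.27 to 0.19) beside AM80. Once the GC trend was removed, HDAC9 was called lower than Untreated with ATRA and inhibitors. It was the only member called in opposite directions at the 2 steps with both retinoids. The share of all genes with this pattern was not computed, and the 2 steps share the libraries with a retinoid alone.

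HDAC5 held 955, 962, 999 and 994 untreated, 699, 779 and 731 with ATRA and 756, 619 and 793 with AM80. All retinoid libraries were lower (log2 -0.41 ± 0.08 SE, adjusted p = 0.00044 with ATRA, log2 -0.44 ± 0.08 SE, adjusted p = 0.000168 with AM80, limma). HDAC3 held 1215, 1184, 1138 and 1336 untreated, 954, 998 and 1036 with ATRA and 1049, 969.8 and 1076 with AM80, again without overlap. It fell by log2 -0.29 ± 0.07 (adjusted p = 0.00267, limma) and -0.24 ± 0.07 (adjusted p = 0.00982), the latter call being lost without AM80 replicate 2 and when only the compared groups were fitted.

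The calls made with 1 retinoid were CREBBP and KAT7 higher and KDM7A lower with ATRA, and KDM6A and HAT1 higher and HDAC7 lower with AM80. Those of CREBBP (log2 0.35 with ATRA, 0.16 with AM80), KAT7 (0.19 and 0.16) and KDM6A (0.14 and 0.19) had adjusted p-values by limma of 0.0338, 0.0469 and 0.0486. They were lost under 7, 19 and 18 of 27 alternatives, in each case without any 1 of the 3 libraries of that retinoid. KDM7A changed by -0.46 ± 0.14 with ATRA (adjusted p = 0.0212, limma) and -0.35 ± 0.14 with AM80 (adjusted p = 0.0666), and its call was lost without Untreated replicate 2 or 3 or without ATRA replicate 2. HDAC7 changed by -0.20 ± 0.09 with ATRA and -0.50 ± 0.09 with AM80 (adjusted p = 0.000243, limma).

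**Figure D5:**
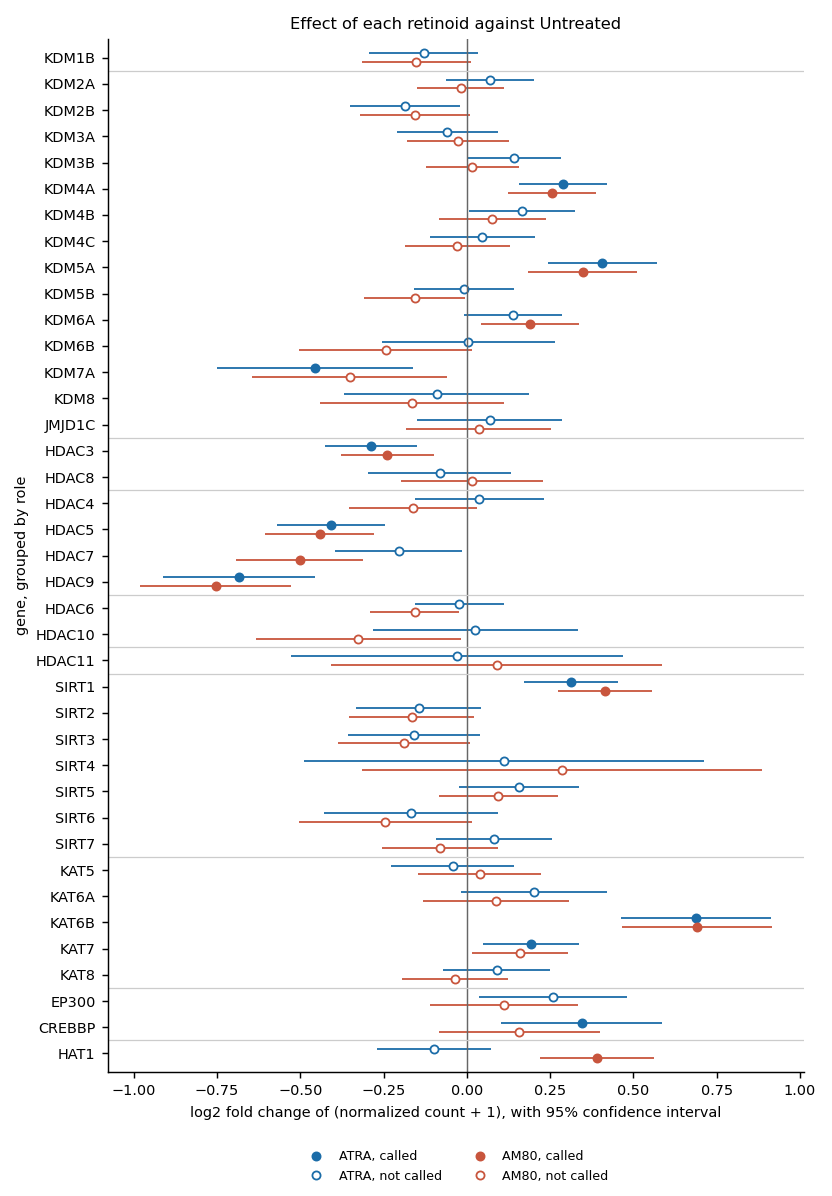
Log2 fold change of the normalized count against Untreated (x axis, with the 95% confidence interval as a line) for each of the 39 genes (y axis, grouped by role) with ATRA (blue) and with AM80 (red), which share the Untreated libraries; filled points were called by limma. KAT6B lies farthest to the right, at 0.69 and 0.69, and HDAC9 farthest to the left, at -0.68 and -0.75.

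The combinations were also compared with Untreated. With ATRA and inhibitors 13 members were higher (30.2% of all genes) and 12 lower (30%), and with AM80 and inhibitors 15 were higher (28%) and 10 lower (26.6%), again near the shares of all genes. KAT6B stood 1.18 and 1.11 above Untreated on the log2 scale, SIRT1 2.03-fold and 1.91-fold, KDM5A 1.94-fold and 1.99-fold, CREBBP 1.96-fold and 2.03-fold and KDM6B 1.78-fold and 2.17-fold, with ATRA and AM80 in that order. At the other end HDAC10 changed by log2 -0.85 and -0.79, KDM8 by -0.65 and -0.70 and HDAC5 by -0.80 and -0.54. Among the 8 acetyltransferases of the list, those called were higher, 5 with ATRA and 7 with AM80. KAT2A, outside the list, was called lower than Untreated with both combinations. With AM80 and inhibitors the calls of HAT1, KAT5 and KAT6A were lost under 5, 4 and 2 of 27 alternatives. Among the 9 classical deacetylases of the list, those called were lower, 6 with ATRA and 4 with AM80. With the GC trend removed, HDAC6, HDAC7, HDAC10 and HDAC11 were no longer called with ATRA and inhibitors (adjusted p = 0.111, 0.0607, 0.115 and 0.198, limma), while HDAC3 and HDAC5 were, and the 4 calls with AM80 and inhibitors were kept. Across the 6 comparisons of treatments, 9 members were called in none, and the share of all genes called in none was not computed.

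AM80 and ATRA were then compared with each other. Only 1 member, HAT1, differed between the retinoids alone, where 0.239% of all genes did. Its 3 AM80 libraries held 3076, 2928 and 2588 normalized counts and its 3 ATRA libraries 2042, 1849 and 2229.9, without overlap, a 1.4-fold higher level with AM80 (log2 0.49 ± 0.09 SE, adjusted p = 0.047, limma). The Untreated libraries (2208, 1972, 2117 and 2439.6) lay closer to those with ATRA. The call was lost under 13 of 27 alternatives, among them the removal of replicate 1 or 2 of either retinoid, of Untreated replicate 1, of any ATRA_GSK-LSD1_MB3 replicate or of AM80_GSK-LSD1_MB3 replicate 1 or 2. For 35 of 39 members the 95% confidence interval of the difference stayed within 1.5-fold in either direction.

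Between the 2 combinations 0 members were called by limma, edgeR or DESeq2. Of all genes, limma and edgeR called 0, and DESeq2 called 96 higher and 23 lower among 38023, of which 29487 had no adjusted p. By limma 7 members had an unadjusted p under 0.05, and the interval stayed within 1.5-fold for 36. SIRT6 had the smallest p, with a level 1.39-fold higher beside AM80 (log2 0.48 ± 0.13 SE, adjusted p = 0.138, limma) and no overlap. It was called without Untreated replicate 4, without AM80 replicate 2, with only the groups compared and with the replicate number as a block. The test of whether the inhibitor effect itself differed between the retinoids called 0 members by limma, edgeR or DESeq2. Limma and edgeR called 0 of all genes. DESeq2 called 17 with a higher and 10 with a lower effect beside AM80, among 38023, of which 30224 had no adjusted p. By limma 8 members had an unadjusted p under 0.05, and 30 intervals stayed within 1.5-fold. HDAC6 had the smallest p: its inhibitor effect was -0.24 beside ATRA and 0.08 beside AM80, a difference of log2 0.32 ± 0.10 SE, adjusted p = 0.226 (limma). KDM6B and SIRT6, which changed more beside AM80, had differences of 0.54 ± 0.19 and 0.56 ± 0.19 (adjusted p = 0.226 and 0.226, limma). Thus the calls made beside 1 retinoid alone were not shown to be particular to it.

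The 2 inhibited enzymes were measured in the same way. KDM1A held 2587, 2737, 2543 and 2597 normalized counts untreated, 2303, 2193 and 2298 with ATRA and 1993, 1927 and 1963 with ATRA and inhibitors, and 2330.2, 2291 and 2303 and 1868, 2052 and 1965 with AM80. Neither step overlapped the one before it. The log2 change on adding the inhibitors was -0.21 ± 0.06 (adjusted p = 0.00607, limma) and -0.24 ± 0.06 (adjusted p = 0.00308). KAT2A held 1583, 1583, 1750.0 and 1793 untreated, 1466, 1527 and 1431 with ATRA and 1265, 1115 and 1247 with inhibitors added, 1319, 1143 and 1453 with AM80 and 1179.5, 1233 and 1217 with inhibitors. It fell beside ATRA (log2 -0.29 ± 0.08 SE, adjusted p = 0.00665, limma) and was not called beside AM80 (log2 -0.10 ± 0.08 SE, adjusted p = 0.339), where the groups overlapped. The inhibitors act on the proteins, so these transcript levels do not check the inhibition.

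The enzymes' neighbours were read from lists of related genes, whose counts stand against 24.9% of all genes higher and 24.4% lower beside ATRA, and 19.9% and 19.5% beside AM80. Of 17 other erasers and acetyltransferases, 6 rose and 3 fell beside ATRA and 6 rose and 4 fell beside AM80. Among those called in both, and by the mean of the 2 changes, CLOCK, the circadian factor with acetyltransferase activity, rose most (log2 1.06 and 0.95), and KAT14, a subunit of the ATAC complex that also holds GCN5, fell most (-0.69 and -0.93). HDAC1, the class I partner of LSD1 in the CoREST complex, is named with HDAC2 for its role, after its values were seen. It was not called in either (log2 -0.09 and -0.07), and HDAC2 was called lower beside AM80 (-0.15 and -0.35). Of 47 subunits of complexes that hold the members, 14 rose and 9 fell beside ATRA and 14 rose and 7 fell beside AM80. BRPF3, a scaffold of KAT6 and KAT7 complexes, rose most (log2 0.51 and 0.69), and BCOR, the partner of KDM2B in a variant Polycomb complex, fell most (-1.06 and -1.28). Of 35 histone methyltransferases, 9 rose and 8 fell beside ATRA and 12 rose and 5 fell beside AM80, led by SETD3, an actin histidine methyltransferase (0.99 and 0.94), and by EHMT2 (G9a, -0.88 and -0.63). The median log2 changes of these 3 lists were 0.02, 0.08 and -0.04 beside ATRA and 0.11, 0.07 and 0.07 beside AM80.

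The members that rose in both inhibitor comparisons were mostly long genes of moderate GC content. The principal transcripts of the 13 that rose measured 1641 to 10803 bases (median 8348), and those of the 4 that fell 2462 to 4595 bases. The GC contents of their longest transcripts were 38.5 to 64.9% (median 45.4%) and 57.4 to 66.9%. Over the 39 members the mean of the 2 inhibitor effects correlated with transcript length at Spearman rho = 0.504 (0.193 over 12043 genes) and with GC content at -0.415 (-0.386 over 14293 genes). KDM6B, at 62.4% GC, and SIRT6, at 64.9% GC and 1641 bases, rose against this ordering. Length and GC content are shared by reads of the same libraries, and their part in the changes was tested here only by removing the GC trend. Exons of 17 members overlap a gene on the opposite strand, those of 7 a gene on the same strand, and those of 18 none, in GENCODE release 29. Among the overlaps not yet named, KDM2B overlaps RNF34, SIRT2 overlaps NFKBIB and KAT5 overlaps RNASEH2C on the opposite strand. KAT7 overlaps FAM117A and HDAC7 overlaps SLC48A1 on the opposite strand too, and SIRT7 overlaps MAFG on the same strand.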

How the data were processed

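RNA from 16 samples of OCI-AML3 cells was sequenced, and the authors deposited 1 table of normalized counts per gene (a signal, not raw counts), made with DESeq2 size factors. The submitters' processing notes name FastQC, cutadapt, STAR, featureCounts and DESeq2, while versions, genome build, annotation and strand setting of the counting were not given in the sources used here. The sample labels name the NucleoSpin RNA and NEBNext Ultra II DNA kits, and the study's methods a ZR RNA MiniPrep and a TruSeq Stranded mRNA kit, so the strandedness of the libraries is not settled. Doses and time were taken from the study's methods. All 16 columns were used, and 0 columns of other samples were present.

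Because values in a library were whole multiples of 1 step, reads were recovered from the deposited normalized counts (100% of values within a tolerance of 1e-06). They gave 11963898 to 33789718 reads per library, and the intervals cover counting error and spread between libraries only. The 14643 genes whose mean over all libraries reached 10 were tested on log2(normalized count + 1) with limma 3.58.1 (trend, R 4.3.3), in 1 fit of all 16 libraries with 9 contrasts and Benjamini-Hochberg adjustment over all genes at 0.05. The script was tested on simulated data. On the recovered reads, edgeR 4.0.16 called 3693 genes higher and 3608 lower on adding inhibitors to ATRA and 2749 and 3148 beside AM80, and DESeq2 1.42.0 called 3546 and 3297, and 2851 and 2600. The alternatives were other pseudocounts, filters, scalings, a GC correction (a spline with 5 degrees of freedom on each library's deviation from the gene mean), edgeR, DESeq2, a replicate block, only the groups compared, a 1.5-fold limit and each library left out. Lengths, GC content and overlaps come from GENCODE release 29 (GRCh38), matched by gene identifier, and promoters from RefSeq. Length is that of the principal transcript and GC content that of the longest transcript of each gene.

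The members and lists were chosen with earlier results of these data known. By the rule for named genes, values in every library are given for up to 15 members called in the same direction in both inhibitor comparisons and up to 8 with both retinoids, by largest mean absolute log2 fold change, and for the 2 targets. Any member called between retinoids, between combinations or in the interaction is named, or else the one with the smallest p, and of each list of related genes the largest mean rise and fall among those called in both inhibitor comparisons. All other members are named by role.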

Additional observations from a re-analysis of the deposited data

Results flagged for a closer look

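Of the 39 members looked at, 1 had a library apart, KDM5B in Untreated replicate 4. KDM5B held 1980 normalized counts there, against 2420 to 2510 in the other 3 Untreated libraries. Its gap to the nearest library was 0.831 of the group's range, just above Dixon's 95% limit for 4 samples. Chance flags about 1 in 20 groups, so 1 flag among 39 members is no more than chance alone would give. Untreated replicate 4 was the lowest of its group for 22 of the 39 genes. HAT1 differed between the retinoids by log2 0.49 (adjusted p = 0.047, limma), with all 3 AM80 libraries above all 3 ATRA libraries.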

How the results depend on the processing

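Of 114 calls of members in the 9 comparisons, 70 were kept under every alternative. A limit of 1.5-fold left 7 calls on adding inhibitors to ATRA, 7 beside AM80, 4 in both, 2 with ATRA, 2 with AM80, 11 and 10 for the combinations with ATRA and AM80 against Untreated, and 0 between retinoids. Of all 14643 genes, that limit left 954 higher and 430 lower with ATRA and 939 and 551 with AM80. For the combinations it left 2083 and 2172 with ATRA and 1896 and 1918 with AM80, and between retinoids 4 and 3. Between retinoids 0 were also called with no filter, with the GC trend removed and with only the groups compared. Between combinations 5 were called with only the groups compared (4 higher and 1 lower, where 9.43% and 4.06% of all genes were). The members' median for inhibitors beside ATRA was -0.00818 with quantile normalization, -0.0878 with total reads and 0.0968 with the GC trend removed. Beside AM80 it was 0.0772 with a mean of at least 50, 0.00567 with quantile normalization, -0.0826 with total reads and 0.0977 with the GC trend removed. With the GC trend removed it was -0.0265 for ATRA, and for AM80 -0.0835 (-0.0879 with total reads). For the combination with ATRA against Untreated it was -0.0123 with quantile normalization, -0.100 with total reads and 0.000473 with the GC trend removed, and for that with AM80 -0.0482, -0.128 and -0.00594. With the GC trend removed 4 called values changed sign: KDM2B to 0.00247, KDM4B to 0.127 and HAT1 to -0.00133 on adding inhibitors to ATRA, and SIRT2 to 0.0392 with ATRA and inhibitors against Untreated. The cause was not tested. Leaving out 1 library at a time gave 19 to 23 calls for inhibitors beside ATRA, 15 to 22 beside AM80, 13 to 19 in both, 7 to 12 with ATRA, 9 to 14 with AM80, 22 to 26 and 21 to 25 for the combinations, 0 to 1 between retinoids, 0 to 2 between combinations (2 without Untreated replicate 4 and 2 without AM80 replicate 2) and 0 to 0 for the difference of inhibitor effects. Over these fits 20.4 to 27.2% of all genes rose and 20 to 26.9% fell with inhibitors beside ATRA. Beside AM80 16.5 to 22.7% rose and 15 to 22.4% fell. With ATRA 10 to 13.5% rose and 8.54 to 14.1% fell, and with AM80 12.4 to 17.5% and 10.6 to 15.3%. With the combinations 27.1 to 31% and 25 to 29.1% rose, and 26.7 to 30.8% and 23.5 to 27.8% fell. Between combinations 3.17% were higher and 1.24% lower without Untreated replicate 4, and 1.35% and 0.314% without AM80 replicate 2. Between retinoids at most 2.21% were higher and 0.922% lower, without Untreated replicate 4. For the difference of inhibitor effects at most 0.205% and 0.0751% were, without AM80 replicate 3. The share of all genes called in both inhibitor comparisons was not computed for these fits, the 1.5-fold limit or the replicate block. The members' medians ranged from 0.0275 to 0.0966, 0.0217 to 0.102, -0.0130 to 0.0707, -0.0514 to -0.0135, 0.00273 to 0.114 and -0.0434 to 0.0895 for inhibitors beside ATRA, beside AM80, ATRA, AM80 and the combinations with ATRA and AM80. With the replicate number as a block, 23, 22, 9, 14, 25 and 23 members were called in these 6 comparisons, 1 between retinoids, 1 between combinations, 0 for the difference and 17 in both inhibitor comparisons, and the members' medians of the combinations were 0.00273 and -0.0434. In the same order, 27%, 22.5%, 12.1%, 17.3%, 29.7% and 28.5% of all genes were then higher. Lower were 26.8%, 22.3%, 11.8%, 15.2%, 29.2% and 26.4%. Between retinoids 1.93% were higher and 0.813% lower, between combinations 3.49% and 1.22%, and for the difference 0% and 0%. Replicate numbers did not pair the libraries: of 30 pairs with the same number 4 correlated above 0.1, and 4 of 15 libraries correlated best with their own number. Untreated replicate 4 has no partner and adds nothing to the blocked fit.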

Other observations

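Outside the members, 2 genes of the lists of relatives and complex subunits, named after their values were seen, changed at both steps. These steps share the libraries with a retinoid alone. NCOA3, a coactivator of nuclear receptors, rose with ATRA by log2 1.69 and with AM80 by 1.65 (limma, adjusted p = 3.38e-11 and 4.87e-11, comparisons that share the Untreated libraries), and again on adding the inhibitors by 0.41 and 0.43. JADE2, a scaffold of the KAT7 complex, fell: its log2 changes were -0.65 and -0.75 with the retinoids and -1.13 and -1.09 with the inhibitors. Of 35 histone methyltransferases, 3 rose and 8 fell with each retinoid, where 12.5% of all genes rose and 12.1% fell with ATRA and 15.4% and 13.4% with AM80. Of 17 other erasers and acetyltransferases, 1 rose and 2 fell with ATRA and 1 rose and 1 fell with AM80. The difference between the lists was not tested.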
